A study of Homo sapiens with 18 samples.

Results

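CHLA-90 cells that had received shERK5-5, a short hairpin RNA against the kinase ERK5, were compared with CHLA-90 cells that had received the control hairpin shNSC, on 3 arrays against 3 of the 18 in the series. The 6 arrays were chosen by their titles alone, and all 21448 probes of the array were tested. CHLA-90 is a human neuroblastoma line, a tumour line of the sympathetic nervous system, without MYCN amplification. Every group was made in the same way: 250000 cells per well received lentiviral supernatant from HEK-293T cells with the hairpin in the pLKO vector, and total RNA was taken 72 hours later in 3 biological replicates. The groups were CHLA-90 with shERK5-5 (3 arrays), CHLA-90 with shERK5-4, a second hairpin against ERK5 (3), and CHLA-90 with shNSC (3). The same 3 hairpins were given to SK-N-BE(2), a neuroblastoma line with amplified MYCN (3 arrays each). All cells carried a lentivirus, so none of the arrays shows untransduced cells, and the labels do not say whether transduced cells were selected. In bulk RNA of this kind, fewer cells of a type and less RNA per cell cannot be told apart.

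ERK5, encoded by MAPK7, is a mitogen-activated protein kinase with a long tail that can itself activate transcription. It is switched on by the kinase MEK5 (MAP2K5) below MEKK2 and MEKK3 (MAP3K2 and MAP3K3), and it phosphorylates transcription factors of the MEF2 family. In neuroblastoma it has been studied beside MYCN and proliferation.

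The target transcript was lower with the hairpin. MAPK7 had log2 signals of 7.24, 7.83 and 7.22 in the shERK5-5 cells, against 8.37, 8.24 and 8.64 in the shNSC cells. All 3 shERK5-5 arrays lay below all 3 shNSC arrays, and MAPK7 was at 50.5% of its control level. The log2 change was -0.99 ± 0.195 (SE here and below, adjusted p = 0.00139 by limma), and the exact two-sided permutation test of the 6 arrays gave p = 0.1, the smallest that its 20 assignments allow. The second hairpin left MAPK7 at a like level: shERK5-5 minus shERK5-4 was 0.08 (95% confidence interval -0.324 to 0.484).

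The arrays of this group were a little more spread among themselves than the controls and covered a narrower range of signal. Pearson's r between arrays of a group was 0.988 to 0.992 for shERK5-5, against 0.994 to 0.996 for shNSC. The interquartile range of log2 signals was 5.32, 5.4 and 5.45 on the shERK5-5 arrays, against 5.59, 5.52 and 5.59 on the shNSC arrays. Array medians were alike, 6.39 to 6.43 with shERK5-5 and 6.35 to 6.42 with shNSC. When arrays were weighted by their fit, replicate 1 of shERK5-5 had the lowest weight of all 18, 0.38. Of markers fixed for the cell type, 8 of 9 adrenergic neuroblastoma markers had a probe, and the log2 of their summed signal was 16.28 to 16.64 with shERK5-5 and 16.13 to 16.62 with shNSC. Their mean log2 signal was 12.08 to 12.63 with shERK5-5 and 12.53 to 12.88 with shNSC, and 1 of the 8, HAND1, was lower. Markers of Schwann cells, endothelium and blood had mean log2 signals of 4.07 to 4.84 with shERK5-5 and 4.01 to 4.58 with shNSC, and 0 of their 12 measured members passed the threshold. Of the longer lists for these cell types, Schwann cell genes had 0 of 7 and endothelial genes 0 of 10 past it, though all 10 endothelial genes had a positive change (median 0.30). Blood and immune genes had 1 of 13 higher, NKG7 (0.94, adjusted p = 0.0038). The part of such cells in the results was not tested.

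At an adjusted p under 0.05, 2721 of 21448 probes (12.7%) differed between shERK5-5 and shNSC in CHLA-90, 1255 higher (5.85%) and 1466 lower (6.84%). These percentages over all probes are given as the background for each list below, but calls were more frequent among brighter probes. In 10 bins of probes by signal, the dimmest held 16 higher and 1 lower calls among 2145 probes. The ninth held 205 and 314 among 2145. For a list of bright genes the background is thus higher than the share over all probes. Changes were mostly modest. The median change of the higher probes was 0.80, or 1.74-fold, and that of the lower ones -0.85, or 1.80-fold. A log2 change over 1 was seen in 299 higher and 526 lower probes, and one over 2 in 15 and 36. The 3 arrays of each group did not overlap at 5754 probes (26.8%), and 2598 (12.1%) were both called and free of overlap. The count depends on single arrays. It was 1889, 2043 and 1720 without shNSC replicate 1, 2 and 3, and 2062, 2480 and 2822 without shERK5-5 replicate 1, 2 and 3.

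The largest rise was in NECTIN1, a cell adhesion molecule of the nectin family. Its log2 signal was 11.10, 11.36 and 11.75 with shERK5-5, against 7.80, 7.21 and 8.14 with shNSC, a change of 3.69 ± 0.254, or 12.9-fold (adjusted p = 3.53e-09). DYNLRB1, a light chain of the dynein motor, had 13.79, 14.46 and 14.48 with shERK5-5, against 11.21, 10.67 and 11.01 with shNSC (3.28 ± 0.182, adjusted p = 1.27e-10). SLCO4C1, an organic anion transporter, had 8.73, 8.78 and 8.44 with shERK5-5, against 5.99, 5.76 and 5.6 with shNSC. In each of these 3 genes the arrays of the groups stood far apart, with gaps of more than 2 log2 units between the closest ones for the last.

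Other large rises followed. DLX5, a homeobox transcription factor, changed by 2.48 ± 0.365. GRIA2, a subunit of AMPA-type glutamate receptors, had 9.83, 10.02 and 9.76 with shERK5-5, against 7.67, 7.7 and 7.5 with shNSC (2.25 ± 0.224). ELAVL3, a neuronal RNA-binding protein, changed by 2.28 ± 0.209, and TRPA1, an irritant-sensing ion channel, by 2.28 ± 0.269. The autophagy protease ATG4D rose by 2.44, ANKRD52, a regulatory subunit of protein phosphatase 6, by 2.29, the microfibril protein MFAP4 by 2.13 and the aggrecan-cleaving protease ADAMTS4 by 2.08. FBRSL1, CCSER1 and MARVELD1 completed the 14 named genes with the most positive change, at 2.38, 2.27 and 2.21. All 14 had adjusted p of 6.67e-05 or less, the value of DLX5.

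The largest fall was in MAGEC1, a cancer-testis antigen. Its log2 signal was 6.40, 7.10 and 7.16 with shERK5-5, against 10.85, 10.90 and 10.86 with shNSC, a change of -3.98 ± 0.178 (adjusted p = 4.38e-12). ACTA2, the smooth muscle actin, had 8.20, 9.01 and 8.62 with shERK5-5, against 12, 12.23 and 12.08 with shNSC (-3.49 ± 0.199). NEFL, the light neurofilament subunit, had 5.61, 6.66 and 6.65 with shERK5-5, against 9.69, 9.78 and 9.81 with shNSC (-3.45 ± 0.277). In all 3 genes the controls lay within 0.23 log2 units of each other while the silenced arrays varied more.

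Other large falls followed. STARD7, which carries phosphatidylcholine to mitochondria, had 10.56, 10.43 and 10.95 with shERK5-5, against 13.83, 13.81 and 14.36 with shNSC (-3.35 ± 0.181). SVIP, an inhibitor of degradation at the endoplasmic reticulum, changed by -3.04 ± 0.278, and GHITM, a protein of the inner mitochondrial membrane, by -2.80 ± 0.198. DDOST, a subunit of the enzyme that attaches N-glycans, and GLO1, the glyoxalase that clears methylglyoxal, both changed by -2.41, as did ANAPC13, a subunit of the anaphase-promoting complex. THBS1, a secreted matrix protein, changed by -2.51. The zinc finger protein ZNF410 had widely spread arrays, 4.04, 5.13 and 6.62 with shERK5-5, against 8.24, 7.49 and 8.44 with shNSC (-2.79 ± 0.402, adjusted p = 5.10e-05). FILIP1L, TMEM64 and DHRS13 changed by -2.95, -2.89 and -2.31.

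**Figure D1:**
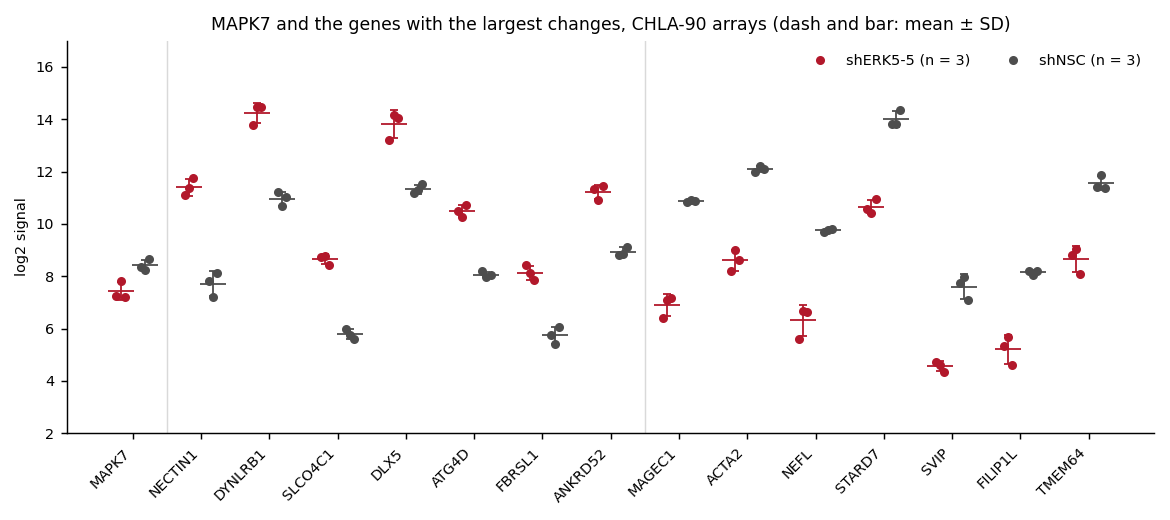
The log2 signal of MAPK7 and of 7 genes with the most positive and 7 with the most negative change is plotted for the 3 shERK5-5 (red, left of each pair) and 3 shNSC (grey) arrays of CHLA-90, one point per array, with dash and bar for the mean and SD. NECTIN1 lies at 11.10 to 11.75 with shERK5-5 and 7.21 to 8.14 with shNSC, and MAGEC1 at 6.40 to 7.16 with shERK5-5 and 10.85 to 10.90 with shNSC. Apart from MAPK7, the plotted genes were chosen among those whose groups do not overlap.

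Because the shERK5-5 arrays had a narrower range of signal, the changes were set out by brightness. Probes were divided into 10 equal bins by their mean log2 signal over the CHLA-90 arrays. As deposited, the median change was 0.08 in the dimmest bin, 0.13 in the fourth and -0.06 in the brightest. Quantile normalization within the line brought it to 0.01 in the dimmest and -0.02 in the brightest bin, while giving each array the same median and interquartile range turned it to -0.05 and 0.14. The brightest bin held 173 higher and 234 lower calls as deposited. It held 192 and 199 after quantile normalization, 203 and 187 after cyclic loess, and 334 and 113 with equal interquartile ranges. Whether bright probes on balance rose or fell thus depended on the scaling. Over all probes the share of calls that were higher was 46.1% as deposited, 47.4% after quantile normalization and 54.2% with equal interquartile ranges. Single calls were steadier. Of the 2721 calls, 2415 (88.8%) were made again after quantile normalization and 2312 (85.0%) with equal interquartile ranges, and 0 turned sign under either. All 173 higher calls of the brightest bin were made with equal interquartile ranges, and 113 of the 234 lower ones.

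**Figure D2:**
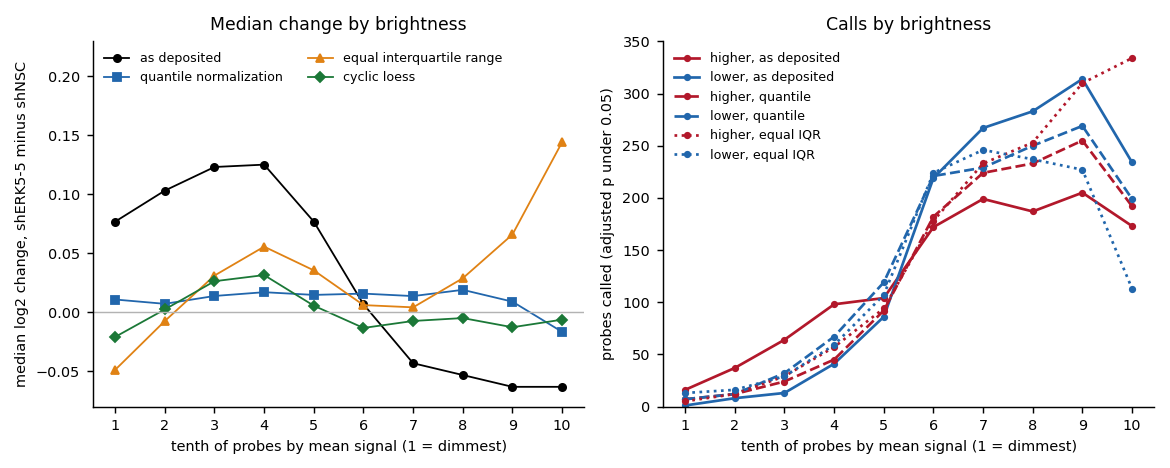
The left panel plots the median log2 change (shERK5-5 minus shNSC) for each of 10 bins of probes by mean signal, as deposited and under 3 other scalings, and the right panel the number of probes called higher (red) and lower (blue). As deposited the median runs from 0.08 in the dimmest to -0.06 in the brightest bin, and the brightest bin turns from 234 lower and 173 higher calls to 113 and 334 when interquartile ranges are made equal.

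Among the brightest probes some changes were far larger than those shifts. Besides DYNLRB1 and ELAVL3, the called genes of the brightest bin with the largest rises were M6PR, the mannose-6-phosphate receptor, TRIB2, a pseudokinase of the tribbles family, MFSD6 and DDA1. M6PR had 13.73, 13.36 and 13.48 with shERK5-5, against 11.75, 11.81 and 11.50 with shNSC, a change of 1.84 as deposited and 2.04 with equal interquartile ranges. TRIB2 changed by 1.52 and 1.71, MFSD6 by 1.49 and 1.68, and DDA1 by 1.48 and 1.68. The largest falls there were in STARD7, GHITM and GLO1, described above, and in TMEM30A, a subunit of phospholipid flippases, MRFAP1, and P4HB, the protein disulfide isomerase. TMEM30A changed by -2.08 as deposited and -1.93 with equal interquartile ranges, MRFAP1 by -2.03 and -1.83, and P4HB by -1.98 and -1.83. All of these stayed past the threshold under equal interquartile ranges.

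Lists of pathway genes were then read one by one. Of the ERK5 cascade and its reported targets, 5 of 16 measured genes were higher and 1, MAPK7 itself, was lower, with a median of 0.27 against 0.05 for all probes. MYCN had 9.62, 9.63 and 10.06 with shERK5-5, against 8.78, 8.63 and 8.99 with shNSC, so that all silenced arrays lay above all controls (0.97 ± 0.172, adjusted p = 0.000503). SGK1, a kinase reported as an ERK5 substrate, rose by 0.76, and MAP3K2, the upstream kinase MEKK2, by 0.74 (adjusted p = 0.00975, but 0.0582 without shNSC replicate 1 and 0.0539 without replicate 3). MEF2D, a transcription factor of the family that ERK5 phosphorylates, rose by 0.77 and the adaptor GAB1 by 0.54. These last 2 genes were picked out after their values were seen, to complete the count. It was 3 higher genes without shERK5-5 replicate 1 or shNSC replicate 3 and 2 without shNSC replicate 1.

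Feedback inhibitors of the related ERK1/2 pathway are switched on by that pathway and dampen it. Of 17 measured, 4 were higher and 0 lower, with a median of 0.33, and 2 of the 13 that did not pass had a negative change. DUSP6, the phosphatase that inactivates ERK1/2, had 8.21, 8.45 and 8.69 with shERK5-5, against 7.62, 7.25 and 7.25 with shNSC (1.08 ± 0.181). DUSP8, a phosphatase of stress-activated kinases, had 5.48, 6.33 and 6.37, against 4.59, 4.22 and 4.70 with shNSC (1.56 ± 0.275). The receptor signalling inhibitors SPRY1 and SPRY4 rose by 1.05 and 0.74. None of these 4 pairs of groups overlapped, which was also so for 2598 of all 2721 calls. The immediate early genes, by contrast, had 2 of 17 higher and 1 lower and a median of 0.07, which was -0.03 after quantile normalization. EGR1, a growth-factor-induced transcription factor, rose by 1.06 ± 0.202. IER3 rose by 0.60 (adjusted p = 0.0302), a call lost when any of 5 arrays was left out (0.0522 to 0.11), all but shNSC replicate 3. SRF, the serum response factor, had 5.8, 6.09 and 5.94 with shERK5-5, against 7.48, 6.92 and 7.93 with shNSC (-1.50 ± 0.211, adjusted p = 3.78e-05).

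SRF, with its coactivators, drives genes of the actin cytoskeleton through a promoter element called the CArG box. Of 27 measured actin and contractile genes 13 were lower and 0 higher, with a median of -0.51, where 6.84% of all probes were lower. With shERK5-4, against the same 3 shNSC arrays, 12 of the 27 were lower and 2 higher, with a median of -0.28, while SRF had a change of 0.44 there (adjusted p = 0.179). The median was -0.45 after quantile normalization and -0.37 with equal interquartile ranges, with 10 lower genes under each. Without shERK5-5 replicate 1, 9 were lower and the median was -0.35. After ACTA2, the named genes were TAGLN, a smooth muscle actin-binding protein, at 5.44, 5.17 and 4.35 with shERK5-5, against 6.68, 6.79 and 6.87 with shNSC (-1.79 ± 0.248). SYNPO, an actin organiser, had 7.94, 8.48 and 8.02 with shERK5-5, against 9.68, 9.26 and 9.87 with shNSC (-1.46 ± 0.218). VCL, the vinculin of focal adhesions, had 10.45, 9.77 and 9.86, against 11.39, 11.43 and 11.57 with shNSC (-1.44 ± 0.187). Between the hairpins ACTA2 and VCL were lower with shERK5-5, by log2 differences of -1.37 and -1.89, and SYNPO was higher by 1.64. Of 6 fibroblast markers other than ACTA2 fixed to check for such cells, 1 was higher (LUM, 0.72, adjusted p = 0.0134, but 0.0548 to 0.0778 without shERK5-5 replicate 2, shNSC replicate 1 or shNSC replicate 3) and 0 lower, with mean log2 signals of 6.98 to 7.40 with shERK5-5 and 6.80 to 6.94 with shNSC.

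**Figure D3:**
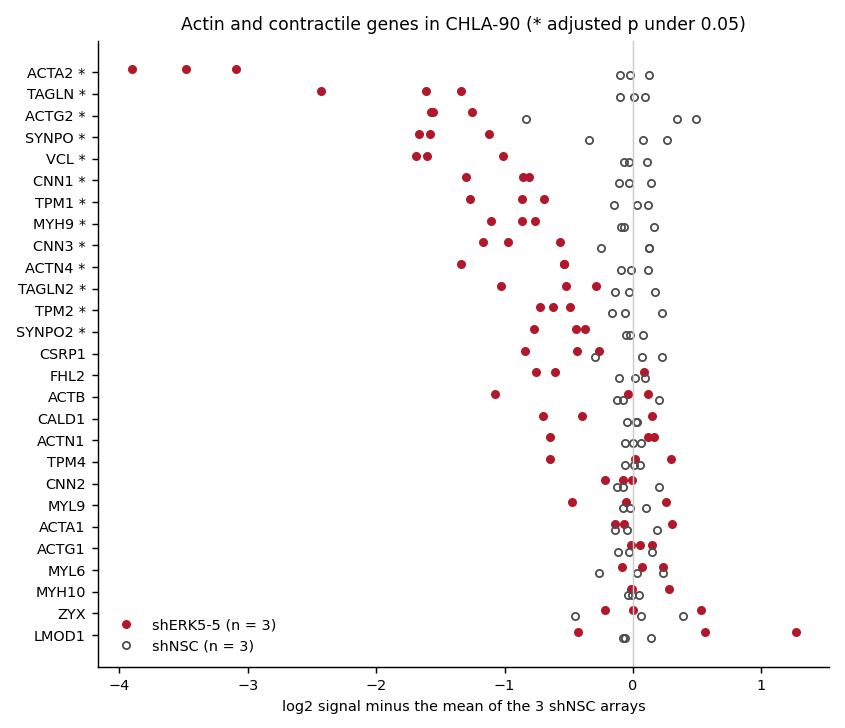
For each of the 27 measured actin and contractile genes, the log2 signal of the 3 shERK5-5 (filled red) and 3 shNSC (open grey) arrays of CHLA-90 is plotted as the difference from the mean of the shNSC arrays, with an asterisk for an adjusted p under 0.05. The 13 called genes all lie to the left of 0, from ACTA2 at -3.49 to SYNPO2 at -0.53, while ACTA1 and the genes near the bottom scatter around it.

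The promoters of 3 actin genes are shown because these genes share a protein family and differed in their change: ACTA2 fell most, ACTG2, the other smooth muscle actin, fell by 1.46 on the log2 scale (adjusted p = 0.000616), and ACTA1, the skeletal muscle actin, had a change of 0.03 (adjusted p = 0.93). ACTG2 and ACTA1 were picked after their values were seen. Each line gives the 100 bases from 150 to 51 before a RefSeq start (build GRCh38.p14), read on the gene's strand. Capitals mark CArG boxes, which are CC, then 6 letters that are each A or T, then GG, a pattern that reads alike on both strands. In ACTA2 they mark a wider form in which 1 of the 6 letters may be G or C. The windows lie at chr10:88952824-88952923 on the minus strand for ACTA2, at chr2:73892858-73892957 on the plus strand for ACTG2 and at chr1:229434145-229434244 on the minus strand for ACTA1.
ACTA2: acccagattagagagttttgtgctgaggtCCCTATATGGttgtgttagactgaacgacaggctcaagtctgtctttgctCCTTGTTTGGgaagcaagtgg
ACTG2: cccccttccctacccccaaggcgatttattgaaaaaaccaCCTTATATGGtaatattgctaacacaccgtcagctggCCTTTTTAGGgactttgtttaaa
ACTA1: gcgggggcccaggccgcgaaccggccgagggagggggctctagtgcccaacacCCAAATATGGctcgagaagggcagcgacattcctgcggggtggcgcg
The marked letters start 121 and 71 bases before the start in ACTA2, 110 and 73 in ACTG2, and 97 in ACTA1. In windows of 250 bases before to 50 after a start, a strict CArG box was found in 7 of the 24 actin list genes with a window (29.2%), against 248 of 14250 genes on the array (1.74%). Of the 13 genes that fell, 12 had a window, and TAGLN had none and was not scanned. Within the list a strict box stood in 1 of these 12, ACTG2, and in 6 of the 12 with a window that were not called. The wider form, chosen after the strict one had been read, stood in 4 of the 12 that fell and 8 of the 12 not called, against 1421 of the 14250 genes (9.97%). A match is a stretch of letters in a reference genome, and no binding was measured. Boxes outside these windows were not scanned, and the part of SRF in the changes of these genes was not tested.

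The Hippo pathway responds to the actin cytoskeleton through YAP, TAZ and the TEAD factors. In a list of genes for these factors, their regulators and their targets, 4 of 23 were lower and 0 higher, with a median of -0.23. The 4 include YAP1 and TEAD1, which are not listed as targets, so the count is not one of targets alone. YAP1, the coactivator itself, had 4.87, 4.47 and 3.74 with shERK5-5, against 6.44, 6.53 and 6.04 with shNSC (-1.98 ± 0.267). CCN1, a secreted matrix protein and classic YAP target, changed by -1.37 and the transcription factor TEAD1 by -0.70. AMOTL1 changed by -0.82 (adjusted p = 0.0235, but 0.0815 to 0.163 without shERK5-5 replicate 1, shNSC replicate 1 or shNSC replicate 3). Of matrix and TGF-beta genes 8 of 37 were lower and 1 higher, with a median of 0.02 that was -0.07 after quantile normalization. Besides THBS1, SPARC, a collagen-binding matrix protein, had 10.26, 10.42 and 10.81 with shERK5-5, against 12.35, 12.33 and 12.20 with shNSC (-1.80 ± 0.156). FBN1, the main microfibril protein, changed by -1.74 and TGFBR1, the type 1 TGF-beta receptor, by -1.65.

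Cell adhesion genes went the other way on count, with 6 of 26 higher and 2 lower and a median of 0.19. After NECTIN1, NCAM2, a neural cell adhesion molecule, rose by 1.31 ± 0.203 and CDH10, a neuronal cadherin, by 1.26 ± 0.225. The integrin subunit ITGB5 fell, at 7.91, 7.35 and 7.76 with shERK5-5, against 9.27, 8.98 and 9.48 with shNSC (-1.57 ± 0.196).

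Lists of cell cycle genes differed, with mostly lower calls in G1/S and calls in both directions in G2/M. Of G1/S and DNA replication genes, 9 of 47 were lower and 1 higher, with a median of -0.38, and 37 had a negative change. CDC6, which loads the replicative helicase, had 10.86, 10.62 and 10.52 with shERK5-5, against 12.36, 12.26 and 12.07 with shNSC (-1.56 ± 0.192). CHAF1B, a subunit of the chromatin assembly factor, changed by -1.46, TYMS, the thymidylate synthase, by -1.23 and GINS3, a subunit of the replicative helicase complex, by 1.03. The count of lower genes was 4 without shERK5-5 replicate 1 or shNSC replicate 3, and 5 without shNSC replicate 1, after quantile normalization or with equal interquartile ranges. Of G2/M and mitosis genes 6 of 40 were lower and 4 higher, with a median of 0.07. The mitotic kinase AURKA changed by -1.34 ± 0.162 and the phosphatase CDC25A by -1.57 ± 0.268, while CCNF, the cyclin F of a ubiquitin ligase, rose by 1.02 and the phosphatase CDC25B by 0.83. Only 2 were lower without shERK5-5 replicate 1, shNSC replicate 1 or shNSC replicate 3, only 2 were higher without shERK5-5 replicate 2, shNSC replicate 1, shNSC replicate 2 or SK-N-BE(2) shERK5-5 replicate 2, and with equal interquartile ranges 7 were higher and 3 lower.

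Clustered histone genes, which are expressed in S phase, were lower in 10 of 28 and higher in 0, with a median of -0.49. H4C1 had 7.15, 7.38 and 7.41 with shERK5-5, against 8.29, 8.04 and 8.15 with shNSC (-0.85 ± 0.173). H4C9 changed by -0.83, H2BC13 by -0.70 and H2AC8 by -0.86 (adjusted p = 0.0167, but 0.0517 with equal interquartile ranges, 0.119 without shERK5-5 replicate 1 and 0.0923 without shNSC replicate 3). Members of these clusters have near-identical sequences, so a probe may read more than 1 of them. The count of lower genes was 4 without shERK5-5 replicate 1 or shNSC replicate 1, and 3 without shNSC replicate 3 or with equal interquartile ranges.

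All 34 measured cytosolic ribosomal protein genes had a negative change, of which 7 passed the threshold, and the median was -0.36. These probes are among the brightest on the array, and the median was -0.29 after quantile normalization and -0.10 with equal interquartile ranges, where 1 passed. Only 1 passed without shERK5-5 replicate 1, 2 without shNSC replicate 1 or replicate 3, and 11 without shERK5-5 replicate 3. RPL29 had 10.65, 10.85 and 11.58 with shERK5-5, against 12.34, 11.86 and 12.25 with shNSC (-1.12 ± 0.21). RPL19 shows how replicate 1 stood apart, with 11.58, 13.09 and 13.25 with shERK5-5, against 13.69, 13.48 and 13.61 with shNSC. Translation factors had 5 of 18 lower and 0 higher, with a median of -0.35 that became -0.07 without shERK5-5 replicate 1 and -0.13 with equal interquartile ranges. Of these factors 6 had a positive change. EIF2S3, a subunit of initiation factor 2, had 10.60, 12.80 and 12.20 with shERK5-5, against 13.69, 13.81 and 13.55 with shNSC (-1.82 ± 0.338), with replicate 1 lowest by far. EIF3F, a subunit of initiation factor 3, was at 10.16, 10.23 and 10.58 with shERK5-5, against 11.80, 11.66 and 12.05 with shNSC (-1.51 ± 0.18), and the elongation factor EEF1A2 changed by -1.53.

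Of 32 measured protein genes of the mitochondrial ribosome 11 were lower and 1 higher, with a median of -0.29 (-0.15 with equal interquartile ranges, 10 lower). MRPL13 had 4.24, 5.09 and 5.08 with shERK5-5, against 6.61, 6.80 and 6.32 with shNSC (-1.77 ± 0.242), and MRPS10 had 8.97, 9.17 and 9.15, against 10.42, 10.65 and 9.99 with shNSC (-1.26 ± 0.187). MRPS35 changed by -1.01. The count was 7 without shNSC replicate 1 or replicate 3. Ribosome biogenesis genes had 4 of 24 lower and 0 higher (2 lower without shERK5-5 replicate 1 or shNSC replicate 3), with a median of -0.33, among them the nucleolar protein NOP16 at -0.84. Respiratory chain and ATP synthase genes had 2 of 33 lower and 0 higher, with CYC1, a subunit of complex III, at -0.96 and ATP5F1A, a subunit of the ATP synthase, at -0.77. That share was near the one over all probes.

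Metabolic lists differed in their share of calls. The cholesterol synthesis list had 1 of 21 lower and 0 higher, with a median of -0.15. Its lower share was not above the one over all probes (6.84%). The called gene, TMEM97 at -0.71, is not itself a synthesis enzyme. Fatty acid synthesis genes had 3 of 16 lower and 1 higher. SCD, the stearoyl-CoA desaturase, had 11.01, 11.36 and 11.21 with shERK5-5, against 12.77, 12.97 and 12.84 with shNSC (-1.67 ± 0.155), and GPAM, which starts glycerolipid synthesis, changed by -1.56. Genes of glutamate and glutamine metabolism were lower in 5 of 17 and higher in 1 (3 lower with equal interquartile ranges). GLUD1, the mitochondrial glutamate dehydrogenase, had 9.89, 9.55 and 9.38 with shERK5-5, against 11.70, 11.76 and 11.83 with shNSC (-2.16 ± 0.17), and GOT2, the mitochondrial aspartate transaminase, changed by -1.37. SLC1A5, a glutamine transporter, changed by -0.80, and ASNS, the asparagine synthetase, rose by 0.83. Hypoxia and glycolysis genes were higher in 2 of 30 and lower in 2, with a median of -0.23. Both shares were near those over all probes, 5.85% higher and 6.84% lower. The glucose transporter SLC2A1 changed by -1.30 and PFKP by -0.74, while ADM rose by 1.04. EGLN1 rose by 0.75 (adjusted p = 0.0155 by limma, but 0.101 without shERK5-5 replicate 1 and 0.0758 without shNSC replicate 3).

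Stress and death genes were mixed. Genes of the ATF4 and amino acid response were higher in 4 of 36 and lower in 1, with a median of -0.10 (2 higher without shERK5-5 replicate 1, shNSC replicate 1 or shNSC replicate 3), and ER chaperones lower in 4 of 21 and higher in 0, with a median of -0.29 (-0.13 with equal interquartile ranges). EDEM1, which marks misfolded glycoproteins for degradation, changed by -1.09 ± 0.205. In the BCL2 family, which sets the threshold of apoptosis, 4 of 15 were lower and 0 higher. The survival gene BCL2 had 8.69, 8.92 and 8.74 with shERK5-5, against 9.75, 9.78 and 9.69 with shNSC (-0.96 ± 0.175), and the death-promoting BCL2L11 had 8.03, 8.68 and 8.69, against 9.31, 9.72 and 9.41 with shNSC (-1.01 ± 0.194). BAK1 and BAX, the pore formers, changed by -0.73 and -0.56, and only 2 members passed the threshold when either of shERK5-5 replicates 1 and 2, or shNSC replicate 3, was left out. CDK inhibitors and p53 targets were higher in 2 of 23 and lower in 3, with a median of 0.02. Among the p53 targets, TP53INP1 fell by 1.99 and ZMAT3 by 1.29 on the log2 scale, and MDM2, the ubiquitin ligase of p53, rose by 1.01.

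Lysosome and autophagy genes went both ways, 4 of 38 higher and 7 lower. After ATG4D and M6PR, ULK1, the kinase that starts autophagy, had 9.37, 9.55 and 10.07 with shERK5-5, against 8.59, 7.84 and 8.15 with shNSC (1.47 ± 0.247). IGF2R, the larger mannose-6-phosphate receptor, had 10.04, 9.68 and 9.88 with shERK5-5, against 11.40, 11.21 and 11.30 with shNSC (-1.44 ± 0.15). The pair of receptors, which both carry enzymes to the lysosome, thus changed in opposite directions. Of small RNA processing genes 3 of 18 were higher and 2 lower, among them AGO1, an Argonaute protein, which rose by 1.25. Interferon-stimulated genes were lower in 2 of 31, near the share over all probes (6.84%), and higher in 0. One of them stood out, IFI6, with 8.5, 8.11 and 8.40 with shERK5-5, against 10.76, 10.42 and 10.66 with shNSC (-2.28 ± 0.171).

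Adrenergic identity factors, which define the sympathetic state of neuroblastoma, were higher in 3 of 18 and lower in 2, with a median of 0.31. TFAP2B, a transcription factor of the sympathetic lineage, had 12.86, 12.66 and 12.79 with shERK5-5, against 11.25, 11.06 and 11.63 with shNSC (1.46 ± 0.192). KLF7 had 16.23, 16.57 and 16.30 with shERK5-5, against 15.16, 15.35 and 15.23 with shNSC (1.12 ± 0.155). HAND1 had 8.57, 10.07 and 10.12 with shERK5-5, against 11.83, 11.12 and 11.62 with shNSC (-1.94 ± 0.287), and its replicate 1 was lowest by far. Genes that make, store or take up catecholamines were lower in 4 of 15 and higher in 0. QDPR and GCH1, both in the supply of the cofactor tetrahydrobiopterin, changed by -1.71 and -1.02, CYB561, an electron carrier of the vesicle membrane, by -1.40, and SLC6A2, the noradrenaline transporter, by -1.09.

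Dense-core vesicle and synaptic genes were higher in 8 of 29 and lower in 4, with a median of -0.08 that was 0.08 with equal interquartile ranges. SV2C, a synaptic vesicle protein, had 10.20, 9.51 and 9.69 with shERK5-5, against 8.09, 8.27 and 8.41 with shNSC (1.54 ± 0.197). RAB3A, a vesicle GTPase, had 9.33, 8.83 and 9.16, against 7.64, 7.42 and 7.89 with shNSC (1.46 ± 0.214). CHGB, a granin of the dense core, had 10.44, 10.71 and 10.62 with shERK5-5, against 11.85, 12.13 and 11.94 with shNSC (-1.38 ± 0.2). SYT4, a synaptotagmin, changed by -0.92. Neuronal cytoskeleton genes were higher in 6 of 25 and lower in 2, with a median of 0.28, and in 10 and 1 with equal interquartile ranges. The lower count was also 1 when any array other than shERK5-5 replicate 2 or 3 was left out. After DYNLRB1 and NEFL, MAPRE3, a microtubule plus-end protein, rose by 1.78 ± 0.235 and DCLK1, a microtubule-associated kinase, by 1.74 ± 0.185. The neurofilament genes divided. NEFM, the medium subunit, averaged 13.69 ± 0.462 with shERK5-5 and 13.03 ± 0.11 with shNSC (SD, n = 3 each), an increase of 0.66, beside the change of -3.45 in NEFL. GAP43, a growth cone protein, rose by 0.86 and STMN2, a tubulin-binding protein of growing axons, by 0.59.

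**Figure D4:**
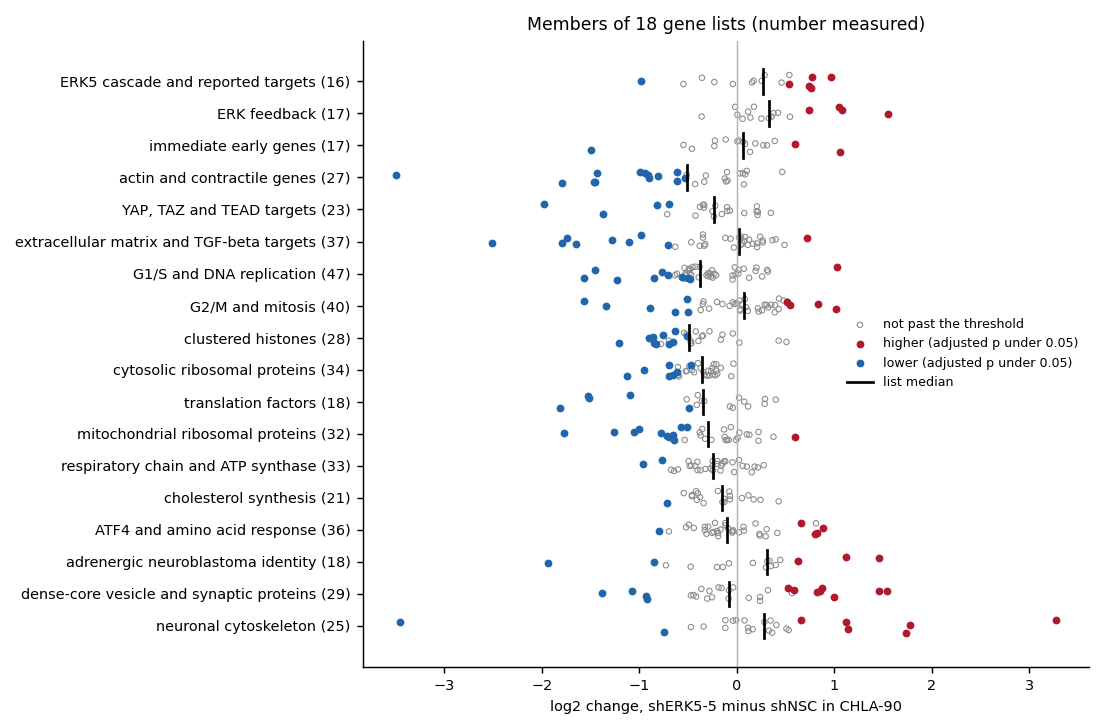
Each point is the log2 change of a list member (shERK5-5 minus shNSC in CHLA-90), filled red or blue where the adjusted p was under 0.05 and open otherwise, and black bars give list medians for 18 of the lists. The actin list has its 13 called genes all on the lower side, the ribosomal proteins lie together just below 0 with a median of -0.36, and the neuronal cytoskeleton runs from -3.45 (NEFL) to 3.28 (DYNLRB1).

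G protein subunits and RGS genes were higher in 5 of 29 and lower in 5, with a median of -0.05 that was 0.09 with equal interquartile ranges. Only 2 were higher without shNSC replicate 2 or 3, and 3 without shERK5-5 replicate 2 or 3. GNG10, a G protein gamma subunit, had 5.39, 5.11 and 5.22 with shERK5-5, against 7.51, 7.68 and 7.25 with shNSC (-2.24 ± 0.197), and RGS2, which shortens G protein signals, rose by 1.13. Phosphoinositide and LPA signalling genes were higher in 4 of 22 and lower in 2 (1 lower without shERK5-5 replicate 1 or shNSC replicate 2, or with equal interquartile ranges). PIP5K1C, a kinase that makes the lipid PI(4,5)P2, had 9.90, 9.81 and 10.18 with shERK5-5, against 7.78, 8.11 and 8.14 with shNSC (1.95 ± 0.196). Of ion channels 3 of 27 were higher and 2 lower (0 lower without shNSC replicate 2, and 1 without shERK5-5 replicate 1 or 2 or shNSC replicate 1 or 3). Among them HCN2 and KCNH2 rose by 1.61 and 1.24. The share of lower ion channels was near the one over all probes. Notch pathway genes were lower in 2 of 21 and higher in 0, with a median of 0.02. DLK1, a ligand-like inhibitor of the pathway, fell by 2.03 on the log2 scale and the Notch target HES1 by 1.07. Neurotrophin, GDNF and ALK receptor genes were lower in 2 of 14 and higher in 0, with a median of -0.11. Among them GFRA2, a receptor for neurturin, changed by -1.72. The lists of heat shock chaperones and of ganglioside synthesis had 0 of 16 and 0 of 14 members past the threshold.

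The second hairpin against ERK5 allows a direct comparison without any control array. Between shERK5-5 and shERK5-4 in CHLA-90, 5825 probes (27.2%) differed, 2651 higher with shERK5-5 (12.4%) and 3174 lower (14.8%). With equal interquartile ranges the split was 3023 higher and 2348 lower. Of the 2721 probes called for shERK5-5 against shNSC, 1753 (64.4%) also differed between the hairpins. Both comparisons use the same 3 shERK5-5 arrays, so this overlap is no separate evidence. DLX5 had 13.20, 14.16 and 14.06 with shERK5-5, against 6.89, 7.06 and 7.59 with shERK5-4, a difference of 6.63 ± 0.365 (adjusted p = 1.19e-11). GPR50, an orphan receptor, had 13.51, 13.28 and 13.67 with shERK5-5, against 7.69, 7.30 and 7.64 with shERK5-4 (5.94 ± 0.223). PRR16, RTN3, DBH, the enzyme that makes noradrenaline, and TMT1A were higher with shERK5-5 by 5.70, 5.23, 4.77 and 4.74. On the other side MAGEC1 had 6.40, 7.10 and 7.16 with shERK5-5, against 11.49, 11.41 and 11.31 with shERK5-4 (-4.52 ± 0.178). VSNL1, a neuronal calcium sensor, ZDHHC20, a palmitoyltransferase, STARD7, YAP1 and SVIP were lower with shERK5-5 by log2 differences of -3.47, -3.39, -3.34, -3.24 and -3.24. Such a difference does not say which hairpin moved a gene. Against shNSC, DLX5 changed by 2.48 with shERK5-5 and -4.15 with shERK5-4, MAGEC1 by -3.98 and 0.53, and YAP1 by -1.98 and 1.27. DBH averaged 13.17 with shERK5-5 and 13.67 with shNSC, a change of -0.50 that was not called (adjusted p = 0.214 by limma).

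Set beside each other against shNSC, the hairpins differed in sign in several of the groups described. The 2 comparisons use the same 3 shNSC arrays, so their likeness is no separate evidence. With shERK5-4, 3918 probes (18.3%) differed from shNSC, 2149 higher (10%) and 1769 lower (8.25%). MYCN changed by 0.97 with shERK5-5 and by -1.89 with shERK5-4, and the direct difference was 2.86 ± 0.172 (adjusted p = 4.38e-11). SRF changed by -1.50 and 0.44, with a direct difference of -1.94 ± 0.211. In the ERK feedback list 4 of 17 were higher and 0 lower with shERK5-5, and 3 higher and 8 lower with shERK5-4. Between the hairpins 9 of the 17 were higher with shERK5-5 and 1 lower. DUSP6 changed by 1.08 and -0.67, and SPRY1 by 1.05 and -1.67. TFAP2B and KLF7 changed by 1.46 and 1.12 with shERK5-5 and by -1.94 and -1.77 with shERK5-4. Cholesterol synthesis had a median of -0.15 and 1 of 21 lower with shERK5-5, and -0.87 and 15 lower with shERK5-4. Cytosolic ribosomal proteins had medians of -0.36 and 0.02. Of the large falls above, ACTA2, FILIP1L and THBS1 were also lower with shERK5-4, at -2.12, -1.76 and -2.38. GLO1 was at -0.52 and NEFL at -0.64 there (adjusted p = 0.0425 and 0.122 by limma). SVIP, GHITM, ZNF410, ANAPC13, DDOST and DHRS13 were at 0.20, 0.31, 0.04, 0.12, 0.003 and -0.07 (adjusted p = 0.335 to 0.994). Whether the lower ERK5 or another effect of 1 hairpin moved these genes was not tested. NECTIN1, DYNLRB1, ATG4D, GLUD1 and GNG10 changed alike, by 3.69, 3.28, 2.44, -2.16 and -2.24 with shERK5-5 and by 3.97, 3.04, 2.42, -2.17 and -2.35 with shERK5-4, and none of these 5 differed past the threshold between the hairpins (adjusted p = 0.367 to 0.964).

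The same hairpin in the other line has controls of its own. In SK-N-BE(2), 2752 probes (12.8%) differed between shERK5-5 and shNSC, 1450 higher (6.76%) and 1302 lower (6.07%). Of these and the 2721 calls in CHLA-90, 982 were made in the same direction in both lines (417 higher, 565 lower), which is 36.1% of the CHLA-90 calls and 35.7% of the SK-N-BE(2) calls, and 72 in opposite directions. Of the CHLA-90 calls, 2013 (74.0%) had the same sign in SK-N-BE(2), against 54.3% of all probes. Genes called alike with the largest changes in both lines were DYNLRB1, NECTIN1, ATG4D, ANKRD52, ELAVL3 and MFAP4 among the higher, and STARD7, TMEM64, GLO1, ZDHHC20, GNG10 and GLUD1 among the lower. STARD7 changed by -3.35 in CHLA-90 and -3.55 in SK-N-BE(2), and TMEM64 by -2.89 and -2.93, while with shERK5-4 in CHLA-90 their changes were -0.01 (adjusted p = 0.978) and 0.02 (adjusted p = 0.983).

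The size of the change differed between the lines at 1156 probes (5.39%), 515 with a higher (2.4%) and 641 with a lower value (2.99%) in CHLA-90, by the test of the difference itself. Without shNSC replicate 3 of CHLA-90 the count was 651, without shERK5-5 replicate 3 of SK-N-BE(2) 674 and without shNSC replicate 2 of SK-N-BE(2) 643. These 1156 included 571 (21.0%) of the CHLA-90 calls. The difference between lines contains the CHLA-90 change itself, so this overlap is no separate evidence. DYNLRB1 rose in both lines but by less in CHLA-90 (difference -1.41 ± 0.258), and MFAP4 likewise (-1.71 ± 0.299). MYCN rose by 0.97 in CHLA-90. In SK-N-BE(2), where the gene is amplified, MYCN had 16.36, 16.29 and 16.34 with shERK5-5, against 17.22, 17.12 and 17.06 with shNSC, a change of -0.80. The difference between the lines was 1.77 ± 0.243 (adjusted p = 0.000163). SRF changed by -1.50 in CHLA-90 and -1.48 in SK-N-BE(2). Of ATF4 and amino acid response genes 4 of 36 were higher and 1 lower in CHLA-90, against 19 and 0 in SK-N-BE(2), and 10 of the 36 differed between the lines, all with the lower value in CHLA-90. Actin and contractile genes had 13 of 27 lower in CHLA-90 and 8 in SK-N-BE(2), with medians of -0.51 and -0.31, and 6 differed between the lines, 5 of them with the lower value in CHLA-90. MAPK7 changed by -0.99 in CHLA-90 and -0.64 in SK-N-BE(2), a difference of -0.35 (95% confidence interval -0.921 to 0.221, adjusted p = 0.527).

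**Figure D5:**
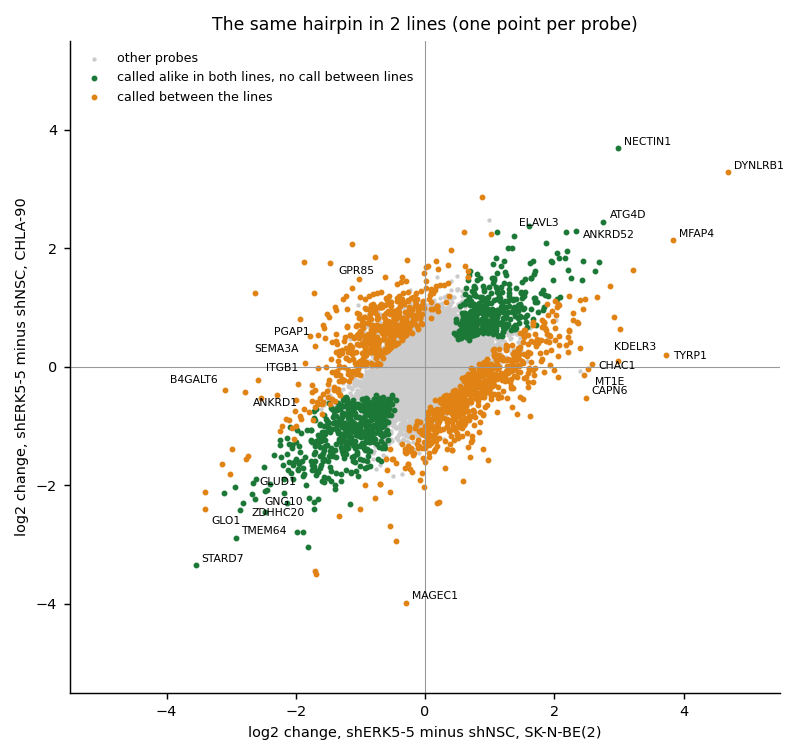
Each point is a probe, placed by its log2 change with shERK5-5 in SK-N-BE(2) (horizontal) and in CHLA-90 (vertical), in green where called alike in both lines and not between them, in orange where the difference between the lines was called (1156 probes), and in grey otherwise. STARD7 at -3.55 and -3.35 and NECTIN1 at 2.99 and 3.69 lie near the diagonal, while MAGEC1 at -0.29 and -3.98 and TYRP1 at 3.72 and 0.19 lie near an axis.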

How the data were processed

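Total RNA, biotin-labelled, was measured on whole-transcript arrays. The table deposited by the authors holds log2 signals for each probe on each array; how they were summarised and normalized, with which software and on which build, is not given in the sources used here. That the base is 2 was taken from the span of the values. Without detection calls, probe background could not be set. Arrays have no depth, and their number limits precision. Of 21448 probes 17709 had 1 symbol and 3739 none in the array's probe table, and 0 symbols changed when checked by gene number. A gene with several probes is given by the brightest.

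Groups came from the labels. A limma 3.58.1 model (R 4.3.3) with 6 group means was fitted to all 18 arrays (lmFit, eBayes, 12 residual and 9.588 prior degrees of freedom), with Benjamini-Hochberg adjustment over all probes of a contrast and a threshold of 0.05. A probe past it is said to be called. Contrasts were shERK5-5 against shNSC in each line, shERK5-5 against shERK5-4 in CHLA-90 and the difference of the shERK5-5 changes between lines. The 49 gene lists (1265 entries, 1114 with a probe), the members and the tests were chosen with earlier results of these data known. They are described by counts and medians, with no test of the list. Named genes are MAPK7, the 14 called genes with the most positive and 14 with the most negative change whose arrays do not overlap, 6 per direction in the brightest 10% of probes, up to 4 called members per list by smallest p, 6 per direction for the hairpin and line differences, and 6 per direction called alike in both lines. Small RNA, non-coding and unnamed genes were passed over.

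Alternatives were 4 within-line scalings (median centring, quantile, cyclic loess, equal median and interquartile range), fits to the line or to the compared arrays, a replicate block, trend and robust eBayes, array weights, leaving out dim probes, averaging probes, a minimum fold of 1.5, a threshold of 0.01 and leaving out each array. Data were simulated with 200 changed probes among the 21448. On them this contrast recovered 98.5% at a log2 change of 2, 70.1% at 1 and 5.97% at 0.5, with 0 false calls. The simulation held fewer changed probes than the 2721 called in the deposited data. Whether these rates hold for the deposited arrays, with their uneven spread and range of signal, was not tested. Promoter sequences are RefSeq's (GRCh38.p14). Figures used matplotlib 3.10.9 in Python 3.11.15.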

Additional observations from a re-analysis of the deposited data

Results flagged for a closer look

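The change with shERK5-5 differed between CHLA-90 and SK-N-BE(2), by the interaction contrast of the limma model, at 1156 probes, and 12 named genes show the largest differences (CHLA-90 minus SK-N-BE(2)).

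More positive in CHLA-90 were B4GALT6, the lactosylceramide synthase (2.71), ANKRD1, a stress-induced muscle ankyrin repeat protein (2.36), ITGB1, the integrin beta-1 subunit (2.35), the orphan receptor GPR85 (2.13), the guidance factor SEMA3A (2.04) and PGAP1, which remodels GPI anchors (2.03). In all but GPR85 and PGAP1, the change in CHLA-90 itself was not called. ITGB1 had 15.50, 15.61 and 15.24 with shERK5-5 and 15.69, 15.71 and 15.63 with shNSC in CHLA-90, against 12.36, 12.44 and 12.46 with shERK5-5 and 14.90, 15.07 and 15.03 with shNSC in SK-N-BE(2). GPR85 rose by 1.51 in CHLA-90 and changed by -0.62 in SK-N-BE(2). ANKRD1 lay in the dimmest of 10 brightness bins in CHLA-90, where its background is unknown.

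More negative in CHLA-90 were MAGEC1 (-3.69), the melanin enzyme TYRP1 (-3.53), the calpain CAPN6 (-3.02), the retention receptor KDELR3 (-2.90), the metallothionein MT1E (-2.60) and CHAC1, a glutathione-degrading enzyme (-2.56). MAGEC1 was called in CHLA-90 only, with 3.74, 3.59 and 3.61 with shERK5-5 and 3.81, 4.10 and 3.90 with shNSC in SK-N-BE(2). The other 5 were called in SK-N-BE(2) only, where TYRP1 had 9.14, 9.34 and 9.04 with shERK5-5, against 5.48, 5.18 and 5.69 with shNSC. CHAC1 had 7.75, 7.48 and 7.71 with shERK5-5, against 7.63, 7.56 and 7.89 with shNSC, in CHLA-90. The part of the deposited normalization in these differences was not tested.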

How the results depend on the processing

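The count of probes for shERK5-5 against shNSC in CHLA-90 (2721) was 1612 when the compared arrays alone were fitted, 293 with a minimum fold of 1.5 and 1335 at a threshold of 0.01. For shERK5-5 against shERK5-4 (5825) the last 2 settings gave 1271 and 3715, for the difference between lines (1156) 78 and 382, and for SK-N-BE(2) (2752) 552 and 1733. Leaving out each array gave 1720 to 2822, 4460 to 5598, 643 to 1401 and 2036 to 2324. The cause of these moves was not tested beyond their construction (fewer arrays or a stricter rule). MAPK7 stayed at -0.99 but was not past a minimum fold of 1.5 (adjusted p = 0.727), and ranged from -1.19 to -0.88 over left-out arrays. Same-numbered shERK5-5 and shNSC arrays deviated together with r of 0.0444 to 0.204, against -0.194 to 0.102 for other pairs, and since not every pair was over 0.1 the number was not taken as a pairing. Whether same-numbered arrays share a culture or day was not tested. A replicate block gave 2952, 6083, 1349 and 2900 calls. Of 3803 comparisons of named genes with an alternative, 3522 stayed on their side of the threshold, 281 fell short and 0 reversed. Apart from the stricter threshold and minimum fold, 153 fell short, in 40 of 197 gene results. List medians moved by over their spread in 108 of 882 comparisons. The scan for the wider CArG form was added after the data had been seen. With no detection calls, changes of the dimmest probes may be understated.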
